A study of Mus musculus with 15 samples.

Results

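The dependence of the GSK-J4 response on cell fraction was measured in 12 of the 15 libraries, those of cultured B cells, and described over 10383 of the 21761 genes in the table. These were the genes with at least 1 RPKM (reads scaled by gene length and by the library's total) in at least 3 of the 12 libraries. CD43- B cells from the spleens of female C57BL/6J mice spent 3 days in culture with LPS, IL-2 and IL-5, and with either the solvent DMSO or 250 nM GSK-J4. GL7+ and CD138+ fractions were taken by magnetic enrichment, and the 4 groups were GL7+ DMSO, GL7+ GSK-J4, CD138+ DMSO and CD138+ GSK-J4, with 3 libraries in each. The labels describe the mice as wild type and name no transgene or other allele, and the mice's age is not given in the sources used here. The sample titles mark the GL7+ cells with the letters ActB and the CD138+ cells with PB. The quantity described is the difference between fractions, which is the GSK-J4 change in CD138+ cells minus the GSK-J4 change in GL7+ cells on the log2(RPKM + 1) scale. A value above 0 means that a transcript moved further up, or less far down, in CD138+ cells than in GL7+ cells.

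GSK-J4 enters cells as an ester and is known as an inhibitor of KDM6A and KDM6B, the enzymes that remove methyl groups from lysine 27 of histone H3. That mark is written by EZH2 in Polycomb repressive complex 2 and accompanies silenced genes. Stimulated B cells pass through an activated state, marked by GL7, in which they divide and can switch antibody class, and some then become CD138+ antibody-secreting plasmablasts. In that step Prdm1, Irf4 and Xbp1 act to shut down the B cell programme and to expand the secretory pathway. The difference between fractions asks which transcripts the same compound moved differently on either side of this step.

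Both fractions carried the transcripts of B lineage cells. Cd79a, which encodes a signalling chain of the B cell receptor, ran from 427.9 to 604 RPKM over the 12 libraries. The summed level of 27 plasma cell genes was 2295 to 2950 RPKM in the GL7+ libraries and 7477 to 8403 in the CD138+ libraries. Depth was 9174456 to 12213369 reads in 9 libraries and 6241143, 7712411 and 6795493 in the CD138+ GSK-J4 libraries, so the lowest depth fell on 1 of the 4 groups. Replicate numbers name the mouse, except in CD138+ GSK-J4 replicate 4, which could be tied to its group but to no mouse. Because the libraries are bulk RNA of enriched fractions, fewer cells of a type and less RNA per cell cannot be told apart in any of the values below. A relative level can also fall because other transcripts rose. Where libraries are listed, they stand in the order of replicates 1, 2 and 3, or 1, 2 and 4 in CD138+ GSK-J4, and DMSO stands before GSK-J4 in every pair of groups. Parentheses give a gene's difference between fractions on the log2(RPKM + 1) scale with its SE and then its adjusted p from limma.

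The GSK-J4 change differed between fractions in 462 of 10383 genes (4.45%), at an adjusted p under 0.05 in limma with Benjamini-Hochberg adjustment. In 134 genes (1.29%) the difference was above 0 and in 328 (3.16%) it was below 0. Most were modest, with a median of 0.42 on the log2 scale among the 134 and -0.36 among the 328, and 15 reached 1 in size. Over all tested genes the median difference was -0.02, with quartiles of -0.13 and 0.09. In most called genes the estimated changes of the fractions had opposite signs, which picking genes by their difference favours. The share of such genes over all tested genes was not counted. Of the 134 genes, 101 had a change above 0 in CD138+ cells and below 0 in GL7+ cells, and of the 328, 233 had the reverse. Only the CD138+ change passed the threshold on its own in 52 of the 134 and 146 of the 328, and only the GL7+ change in 50 and 104. The changes of both fractions passed the threshold on their own with opposite signs in 75 of all tested genes (0.722%), 25 of them higher and 50 lower in the difference, and all 75 were among the 462. A further 965 genes had changes past the threshold in both fractions in the same direction, and the difference was called in 32 of them. Taken alone, the change passed the threshold in 2316 of the 10383 genes in CD138+ cells and in 2416 in GL7+ cells. These are the background, for both directions together, of the list counts below of genes that rose or fell in a fraction. For higher and lower differences the background of every list is 1.29% and 3.16%.

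**Figure D1:**
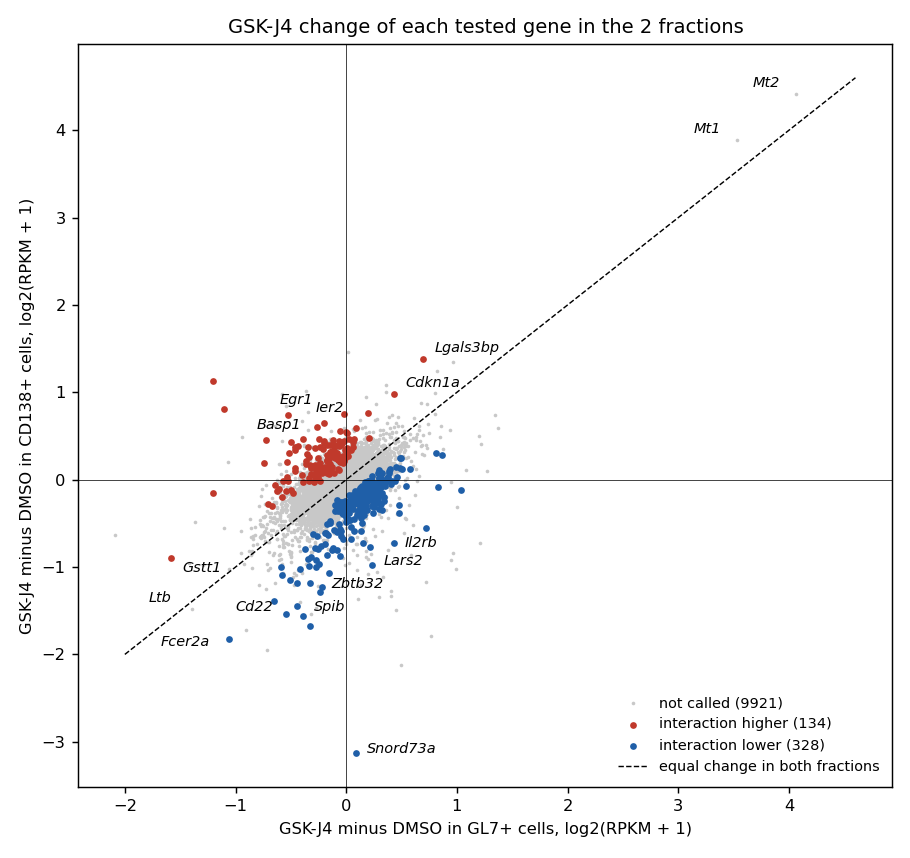
GSK-J4 change of each of the 10383 tested genes in GL7+ cells (x axis) and CD138+ cells (y axis), both as GSK-J4 minus DMSO on the log2(RPKM + 1) scale. Each point is a gene, the 134 genes with a called difference above 0 (red) and the 328 below 0 (blue) lie off the dashed line of equal change, and Mt1 and Mt2 lie far out and were not called on this scale.

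Seen the other way, the difference is how far GSK-J4 moved the gap between the fractions. Of the 328 genes with a lower difference, 251 already had a lower level in CD138+ than in GL7+ cells under DMSO, beside 6369 of all 10383 genes, and the gap was wider under GSK-J4 in 281, beside 6099 of all 10383. In the 251 a lower difference widens the gap by construction. Of the 134 genes with a higher difference, 69 had the lower level in CD138+ cells under DMSO, beside the same 6369 of all 10383. The order of the fractions was the other way round under GSK-J4 in 48 of the 134 and 41 of the 328. How often it turned over all tested genes was not counted. In both mice with a complete set of 4 libraries the difference had the same sign as the whole in 462 of 462 called genes, beside 6196 of all 10383. That count is not independent, since these libraries were part of the fit. The 462 calls dropped to between 211 and 282 when GL7+ DMSO replicate 1 or 3, CD138+ DMSO replicate 1, 2 or 3, CD138+ GSK-J4 replicate 2 or GL7+ GSK-J4 replicate 3 was left out, and to 243 with all libraries thinned to the depth of the shallowest. With the mouse as a block, 455 genes were called, 317 of them among the 462.

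The immediate early genes stood at the head of the higher differences. They encode transcription factors and feedback regulators that are transcribed within minutes of a signal at a receptor, without new protein synthesis. Of 20 tested members 11 had a higher difference and 0 a lower one, against 1.29% and 3.16% of all genes, and the median difference was 0.41 against -0.02. In limma, 14 members had an unadjusted p under 0.05, and in the voom fit 12 were called higher and 1 lower. In GL7+ cells 13 of the 20 fell under GSK-J4 and 0 rose (median change -0.31). In CD138+ cells 8 rose and 1 fell (median change 0.18). The count of 11 became 6 without GL7+ DMSO replicate 1 or 3 or GL7+ GSK-J4 replicate 2, and 7 without CD138+ DMSO replicate 1 or 3, CD138+ GSK-J4 replicate 2 or GL7+ GSK-J4 replicate 3. It was 7 at equal depth.

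Egr1, a zinc finger factor of the serum and antigen receptor response, had the largest difference above 0 of the genes with at least 5 RPKM in a group. It stood at 241, 205 and 271 RPKM in GL7+ DMSO, 161, 146 and 189.8 in GL7+ GSK-J4, 102, 74.9 and 87.6 in CD138+ DMSO and 159, 149 and 134 in CD138+ GSK-J4 libraries. GSK-J4 thus lowered it in one fraction and raised it in the other, with no overlap between treated and solvent libraries in either (difference 1.26 ± 0.18 SE, adjusted p = 0.0042). The rule for named genes required no overlap in the fraction that changed more, here CD138+ cells. The share of genes without overlap over all tested genes was not counted. Under DMSO the fractions lay far apart and under GSK-J4 close together. Ier2, a small nuclear regulator, had 41.6, 38.1 and 42.2 RPKM in CD138+ DMSO and 63.4, 64.7 and 64.2 in CD138+ GSK-J4 libraries, and 52.1, 56.7 and 59.8 and 48.2, 46.5 and 52.02 in the GL7+ groups. Its rise in CD138+ cells was the larger part of its difference of 0.84 ± 0.08 (adjusted p = 0.00081). Junb, a partner of Fos in the AP-1 factor, divided the other way, since most of its difference (0.74 ± 0.09, 0.0019) came from GL7+ cells. It read 64.04, 62.9 and 67.7 RPKM with DMSO and 48.1, 41.5 and 44.2 with GSK-J4 there, and 29.5, 31.3 and 26.99 against 33.6, 35.5 and 32.5 in CD138+ cells.

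Fos, the partner of Junb in AP-1, was level in the fractions under DMSO, at 23.5, 20.54 and 26.8 RPKM in GL7+ and 24.9, 18.7 and 27.2 in CD138+ libraries. With GSK-J4 it read 15.7, 16.98 and 18.8 and 31.4, 29.4 and 31.9, and every CD138+ GSK-J4 library lay above every GL7+ GSK-J4 library (difference 0.82 ± 0.17, adjusted p = 0.018, and 0.051 at equal depth). Zfp36, which encodes the mRNA-destabilising protein tristetraprolin, went from 122, 104 and 132 to 84.4, 78.7 and 95.4 RPKM in GL7+ and from 153, 136 and 152 to 186, 195 and 179 in CD138+ cells (0.81 ± 0.12, 0.0052). Egr2, a relative of Egr1, had a difference of 0.82 ± 0.20 (0.039) at low levels of 1.58 to 6.92 RPKM. Its call was kept only without GL7+ DMSO replicate 2 or CD138+ GSK-J4 replicate 4, with an adjusted p of 0.057 to 0.1 on leaving out any of the other 10 libraries. The remaining called members fell outside the rule for named genes and were picked after their values were seen. They were the phosphatases Dusp5 (0.61) and Dusp1 (0.51), the AP-1 subunit Jun (0.30), the antiproliferative gene Btg2 (0.32) and Ppp1r15a (0.56), a phosphatase subunit that restores translation after stress. Dusp1 had changes of 0.59 in CD138+ and 0.08 in GL7+ cells, and Ppp1r15a of -0.01 and -0.57, so the members did not share 1 pattern. The members below 0 were Atf3 (-0.60, adjusted p = 0.14) and Nr4a1 (-0.11, 0.69).

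**Figure D2:**
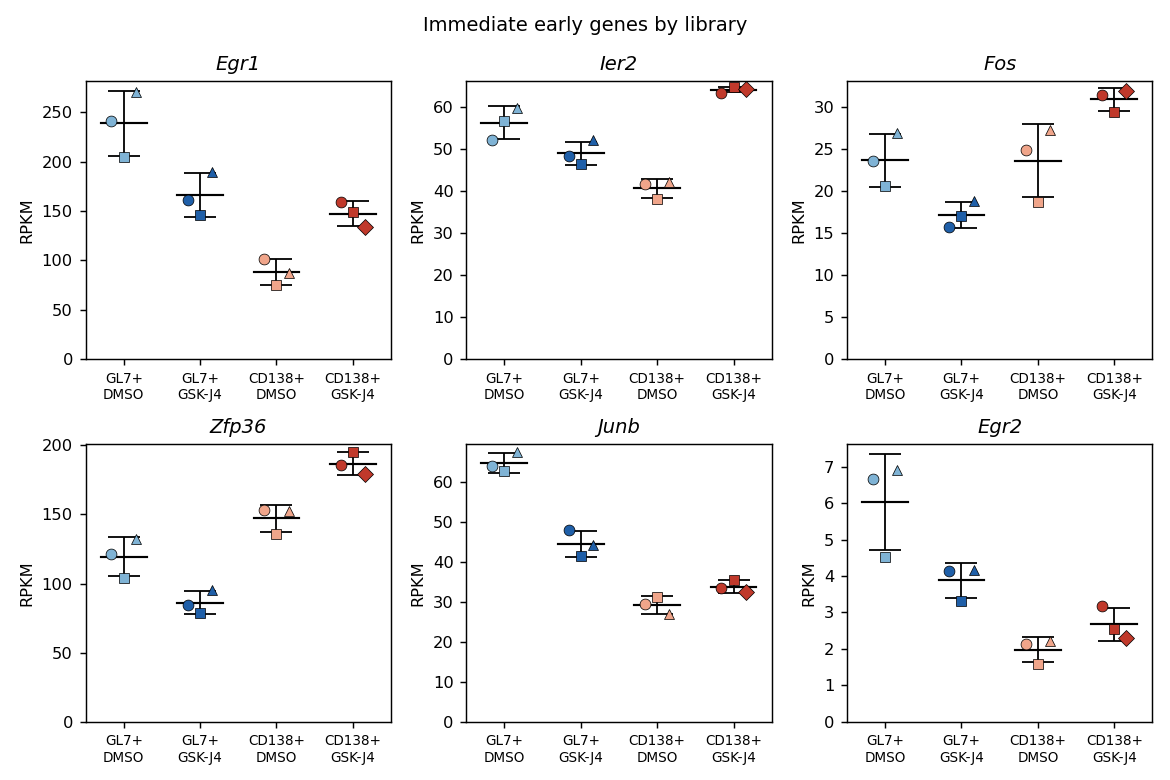
RPKM of 6 immediate early genes in each of the 12 libraries, by group (x axis). Circles, squares, triangles and diamonds are replicates 1, 2, 3 and 4, and bars are the mean and SD of 3 libraries. In each panel GSK-J4 libraries lie below DMSO in GL7+ cells and above DMSO in CD138+ cells. The rule by which these genes were named required no overlap in the fraction that changed more.

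Promoters are shown for 3 of these genes that moved in opposite directions, because such genes are known to share binding sites for signal-dependent factors just before the start. Windows of 250 bases before to 50 bases after the start were taken from RefSeq on GRCm38.p6, which is not the build of the expression table, and are given on the gene's strand. The windows are chr12:85473640-85473939 on the plus strand for Fos, chr7:28379179-28379478 on the minus strand for Zfp36 and chr8:84978699-84978998 on the minus strand for Junb. Capitals mark 3 motifs searched on both strands, which do not overlap here: the CArG box of serum response factor, the core TGACG of the cAMP response element, and TATAAA. These motifs took the place of others first planned, and promoters were taken only from immediate early genes already named by the rule. Of all 27025 windows 1.57% held a CArG box, 21% the core TGACG and 14.2% TATAAA.
Fos: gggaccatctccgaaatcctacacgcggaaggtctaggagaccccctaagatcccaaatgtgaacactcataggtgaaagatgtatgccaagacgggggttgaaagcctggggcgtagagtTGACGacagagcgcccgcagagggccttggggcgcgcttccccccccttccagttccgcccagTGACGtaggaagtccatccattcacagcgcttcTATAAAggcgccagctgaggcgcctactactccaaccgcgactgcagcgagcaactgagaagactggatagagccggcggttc
Zfp36: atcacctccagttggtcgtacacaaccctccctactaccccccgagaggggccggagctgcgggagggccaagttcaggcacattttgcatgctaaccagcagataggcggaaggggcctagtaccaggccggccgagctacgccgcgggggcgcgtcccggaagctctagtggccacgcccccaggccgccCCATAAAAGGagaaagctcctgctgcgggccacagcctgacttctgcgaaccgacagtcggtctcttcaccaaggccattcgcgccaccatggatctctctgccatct
Junb: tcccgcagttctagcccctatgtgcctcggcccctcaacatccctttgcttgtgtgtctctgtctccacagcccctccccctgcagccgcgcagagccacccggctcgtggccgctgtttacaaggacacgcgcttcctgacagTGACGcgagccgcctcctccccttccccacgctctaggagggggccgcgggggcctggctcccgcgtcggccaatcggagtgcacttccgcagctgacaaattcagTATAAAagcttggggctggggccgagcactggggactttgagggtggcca
Zfp36 held a CArG box that began 58 bases before the start. Fos held TGACG in 2 places and a TATAAA 33 bases before the start, and Junb held TGACG 106 bases before it and a TATAAA at the start itself. The window of Egr2 held none of the 3. These are matches of letters within the windows. No window is given for Egr1 or Ier2, which also moved in opposite directions, so their motifs are not described.

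Genes of mature and activated B cells were among those with the largest lower differences that the rule for named genes took. Of 35 tested mature B cell genes 9 had a lower and 1 a higher difference (background 3.16% and 1.29%), although the median of the list was only -0.10. The list had median changes of -0.37 in CD138+ and -0.28 in GL7+ cells, where 24 and 19 members fell. Of 24 activated B cell genes 4 had a lower difference and 0 a higher one, with a median of -0.28. The 4 became 7 without CD138+ GSK-J4 replicate 1.

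Spib, an Ets factor that sustains B cell identity, read 21.4, 19.6 and 16.6 RPKM in CD138+ DMSO and 7.82, 4.89 and 5.02 in CD138+ GSK-J4 libraries. In GL7+ cells it read 88.7, 80.6 and 89.05 and 72.3, 58.1 and 66.6. The change was -1.57 on the log2 scale in CD138+ cells (adjusted p = 1.7e-05) and -0.39 in GL7+ cells (adjusted p = 0.058), with a difference of -1.18 ± 0.20 (adjusted p = 0.0073). Id3, an inhibitor of E proteins, read 8.68, 7.85 and 7.07 against 2.69, 1.91 and 2.16 in CD138+ and 27.5, 32.4 and 25.5 against 21.5, 17.7 and 22.5 in GL7+ cells (-1.0 ± 0.16, 0.0068, and 0.099 at equal depth). In both genes treated and solvent libraries did not overlap within either fraction, and the CD138+ GSK-J4 libraries held the lowest values. In CD138+ cells, which changed more, the rule by which both were named required the lack of overlap.

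Cd22, a lectin that dampens signals of the B cell receptor, read 36.4, 36.03 and 31.6 RPKM in CD138+ DMSO and 15.1, 9.498 and 9.76 in CD138+ GSK-J4 libraries, against 154, 142 and 162 and 114, 92.3 and 108 in GL7+ cells (-1.0 ± 0.19, adjusted p = 0.014). Pax5, the factor that keeps cells in the B lineage, had a difference of -0.72 ± 0.15 (0.017) and fell by 0.99 on the log2 scale in CD138+ cells. Fcer2a, the low-affinity IgE receptor CD23, fell in both fractions, with changes of -1.83 and -1.05 (difference -0.77 ± 0.12, 0.0056). With a pseudocount of 5 RPKM the adjusted p of Fcer2a was 0.59. Cd83, a maturation marker, read 19.9, 21.4 and 19.9 against 8.33, 8.57 and 8.997 in CD138+ and 68.1, 72.6 and 69.01 against 49.97, 47.3 and 49.7 in GL7+ cells (-0.65 ± 0.07, 0.00087). Batf, which acts with IRF factors at switch genes, fell by 0.58 on the log2 scale in CD138+ cells and had a GL7+ change of -0.05 (-0.54 ± 0.09, 0.0073). Il2ra, the alpha chain of the IL-2 receptor, read 48.8, 52.2 and 47.3 against 37.3, 34.8 and 35.95 and 37.6, 38.5 and 36.1 against 38.9, 39.2 and 39.7 (-0.51 ± 0.06, 0.0021). The member with a higher difference was Cd55, a complement regulator, at 0.57 ± 0.10 (0.008), which fell in GL7+ cells (-0.54) with a CD138+ change of 0.03.

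**Figure D3:**
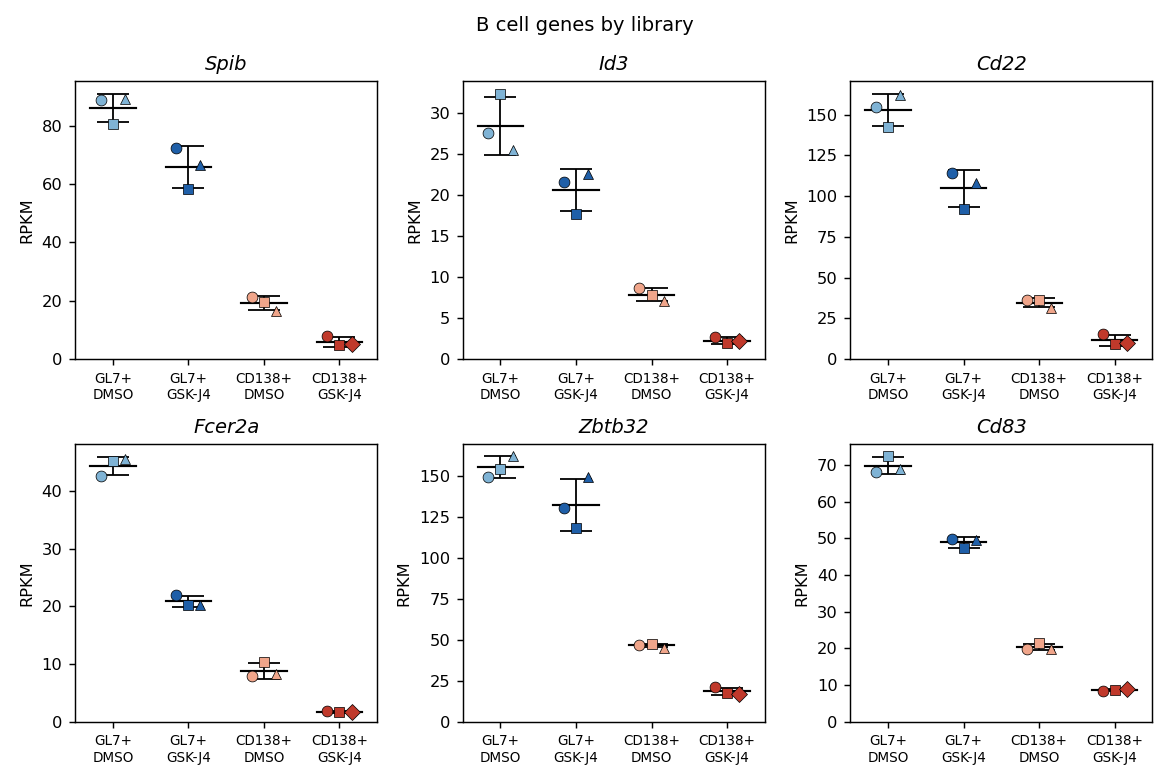
RPKM of 6 B cell genes in each of the 12 libraries, by group (x axis). Circles, squares, triangles and diamonds are replicates 1, 2, 3 and 4, and bars are the mean and SD of 3 libraries. The CD138+ GSK-J4 libraries lie lowest in every panel, while the drop in RPKM is larger in GL7+ cells in every panel but that of Zbtb32.

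For several of these genes the fraction with the larger change depended on the scale. On the log2 scale Cd22 fell further in CD138+ cells, but in RPKM its mean fell by 23.2 there and by 48.1 in GL7+ cells. The change in mean RPKM was -13.3 and -20.4 for Spib, -5.61 and -7.86 for Id3, -7.07 and -23.5 for Fcer2a and -11.8 and -20.9 for Cd83, in CD138+ and GL7+ cells in turn. For Pax5 it was -20.8 and -25.75. Zbtb32, a repressor of the zinc finger BTB family, had -27.9 and -22.8, Batf -14.97 and -3.16, and Il2ra -13.4 and 1.84, so that the order of these 3 was kept on both scales. Over all calls the sign was the other way on the RPKM scale in 19 of 328 lower and 0 of 134 higher genes. In the 101 and 233 called genes whose fractions moved in opposite directions the sign does not depend on the scale.

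On the log2 scale, genes that mark antibody-secreting cells had differences that were mostly below 0, with 3 called. The sign on the RPKM scale, counted above for calls, was not counted over this list. Of 26 tested plasma cell genes 18 rose and 0 fell in GL7+ cells, and 9 rose and 2 fell in CD138+ cells. The difference was below 0 in 23 of the 26, with a median of -0.17, and 3 were called, all lower (11.5%, background 3.16%). Those 3 became 5 without GL7+ GSK-J4 replicate 1, and the voom fit called 8. Irf4, which at high level drives plasma cell fate, read 129, 128 and 125 RPKM in GL7+ DMSO and 159, 171 and 171 in GL7+ GSK-J4 libraries, with 343, 336 and 372 and 378, 375 and 371 in CD138+ cells. Its difference was -0.29 ± 0.06 (adjusted p = 0.018, and 0.051 with the mouse as a block). Fkbp11, a chaperone of the secretory pathway, rose from 8.14 to 12.3 RPKM in GL7+ cells on average and had means of 71.96 and 68.6 in CD138+ cells (-0.61 ± 0.14, 0.027). Its call was lost without any 1 of 7 libraries, at an adjusted p of 0.051 to 0.07, and kept without any of GL7+ GSK-J4 replicate 1, CD138+ GSK-J4 replicate 1, 2 or 4 or GL7+ DMSO replicate 3. The third was Zbtb32, which read 46.9, 47.3 and 45.2 against 21.1, 17.8 and 16.8 RPKM in CD138+ and 149, 154 and 162 against 130.1, 118 and 149 in GL7+ cells (-1.05 ± 0.12, 0.0015). In these libraries it was higher in GL7+ than in CD138+ cells.

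Of the regulators of the plasma cell fate, Irf4 passed the threshold in limma and Prdm1 and Xbp1 did not. Prdm1, which encodes BLIMP-1, read 39.5, 35.8 and 36.2 RPKM with DMSO and 48.1, 51.6 and 47.8 with GSK-J4 in GL7+ cells, and 131, 126 and 126 against 142, 146 and 138 in CD138+ cells. It rose in both fractions, by 0.40 and 0.16 on the log2 scale. Its difference was -0.24 (95% interval -0.38 to -0.10, adjusted p = 0.059). Its adjusted p was 0.025 with voom, 0.046 among genes with a mean of at least 5 RPKM and 0.043 without GL7+ DMSO replicate 1. Xbp1, the secretory pathway factor, had a difference of -0.18 (-0.38 to 0.01, 0.27). Sdc1, the gene of CD138 itself and the basis of the enrichment, had one of -0.42 (-0.75 to -0.10, 0.13), reading 1.300, 1.54 and 1.26 RPKM in GL7+ DMSO and 2.33, 3.296 and 3.005 in GL7+ GSK-J4 libraries. At this low level the value moved with the setting, from -0.048 (adjusted p = 0.86) with a pseudocount of 5 to -0.72 (0.041) with one of 0.1 and -0.76 (0.056) with voom, and it had 0.039 with the mouse as a block. The B cell repressors Bach2 at -0.13 (-0.40 to 0.14) and Bcl6 at 0.24 (-0.04 to 0.52) had intervals that spanned 0. Among 26 genes of the unfolded protein response and folding in the endoplasmic reticulum, 14 rose in GL7+ and 10 in CD138+ cells. Of the 26, 4 had a lower difference (background 3.16%). Creld2, a disulphide isomerase of that response, was the clearest, at 101, 104 and 96.4 RPKM against 144, 152 and 154 in GL7+ and 374, 379 and 396 against 384, 414 and 452 in CD138+ cells (-0.45 ± 0.08, 0.0073). It was the 1 call of the 4 that stood when any single library was left out, the count being 1 without GL7+ DMSO replicate 1 or 3, GL7+ GSK-J4 replicate 2 or 3, CD138+ DMSO replicate 1, 2 or 3 or CD138+ GSK-J4 replicate 1 or 2.

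The lists of ribosome biogenesis, cytosolic and mitochondrial chaperone and nucleotide synthesis genes had medians above 0 in GL7+ cells and below 0 in CD138+ cells, unlike the endoplasmic reticulum list above, whose medians were 0.14 and 0.10. These processes supply a dividing cell with ribosomes, folded protein and nucleotides. The lists of nucleolar, chaperone, purine and pyrimidine, tRNA synthetase, proteasome and actin genes were drawn up after the calls were seen, so that their counts describe the calls and give no independent evidence. Of 24 genes of the MYC and ribosome biogenesis list, which was written earlier, 5 had a lower difference and 0 a higher one (background 3.16% and 1.29%), with a median of -0.22. In GL7+ cells 15 of the 24 rose and 2 fell, and in CD138+ cells 2 rose and 6 fell. The 5 became 3 without GL7+ DMSO replicate 1 or CD138+ DMSO replicate 1, 10 without CD138+ GSK-J4 replicate 1 and 8 without CD138+ GSK-J4 replicate 4. With the mouse as a block 8 were called. When all 15 libraries shared 1 variance the called genes numbered 1 of this list, 7 of the nucleolar, 2 of the chaperone and 4 of the purine and pyrimidine list. Rrp9, a component of the small nucleolar particle that processes pre-ribosomal RNA, read 29.8, 31.95 and 31.9 RPKM against 39.99, 37.7 and 41.6 in GL7+ and 20.3, 19.7 and 20.2 against 16.4, 16.96 and 19.1 in CD138+ cells. Solvent and treated libraries did not overlap in either fraction, and the directions were opposite (-0.53 ± 0.08, adjusted p = 0.0055). Ddx21, a nucleolar helicase, had a difference of -0.28 ± 0.05 (0.012) and Wdr12, a factor of the large subunit, one of -0.34 ± 0.07 (0.013).

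Of 39 nucleolar and ribosomal RNA processing factors 13 had a lower difference and 38 were below 0, with a median of -0.26. In GL7+ cells 24 rose and 0 fell, and in CD138+ cells 0 rose and 10 fell. The 13 became 8 without GL7+ DMSO replicate 1. Heatr3, which carries ribosomal proteins to the nucleus, read 29.3, 29.8 and 30.5 RPKM against 33.4, 36.1 and 36.98 in GL7+ and 20.97, 20.2 and 21.3 against 16.9, 17.2 and 18.3 in CD138+ cells (-0.48 ± 0.07, 0.0047). Pus7, a pseudouridine synthase, had a difference of -0.52 ± 0.08 (0.0055) and Ftsj3, a methyltransferase of the nucleolus, one of -0.42 ± 0.06 (0.0055). By contrast, 0 of 24 ribosomal protein genes were called in limma, with 4 at an unadjusted p under 0.05 and 0 called by voom, and their median difference was -0.04.

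Of 20 chaperone genes 9 had a lower difference and all 20 were below 0, with a median of -0.22. Hspd1, the mitochondrial chaperonin HSP60, had the smallest p after Ier2 among the genes that changed in opposite directions. It read 321, 342 and 328 RPKM against 387, 407 and 418 in GL7+ and 208, 199 and 200.2 against 177, 172 and 178 in CD138+ cells (-0.49 ± 0.05, 0.0011). Cct6a, a subunit of the ring-shaped chaperonin that folds actin and tubulin, read 221, 229 and 224 against 251, 263 and 264 and 159, 154 and 157 against 140.4, 141 and 138 (-0.37 ± 0.05, 0.0021). These are changes of modest size with tight replicates. The subunit Cct8 had a difference of -0.30 ± 0.05 (0.0073) and the cytosolic chaperone Hsp90aa1 one of -0.32 ± 0.05 (0.0072). Of 17 purine and pyrimidine synthesis genes 8 had a lower difference, with a median of -0.33, and the 8 became 5 without GL7+ DMSO replicate 1. Ppat, the first committed enzyme of purine synthesis, read 27.2, 27.8 and 28.4 against 34.5, 33.8 and 35.4 in GL7+ and 17.5, 17.7 and 17.8 against 16.97, 16.3 and 16.5 in CD138+ cells (-0.39 ± 0.06, 0.0047). Gart, which acts at later steps of that route, changed in opposite directions in the fractions (-0.42 ± 0.07, 0.0067). Impdh2, which commits the pathway to guanine nucleotides, fell in both, with changes of -0.48 in CD138+ and -0.15 in GL7+ cells (-0.33 ± 0.05, 0.0064). Of 20 cytosolic tRNA synthetase genes 0 were called in limma, with 3 at an unadjusted p under 0.05 and 0 called by voom.

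**Figure D4:**
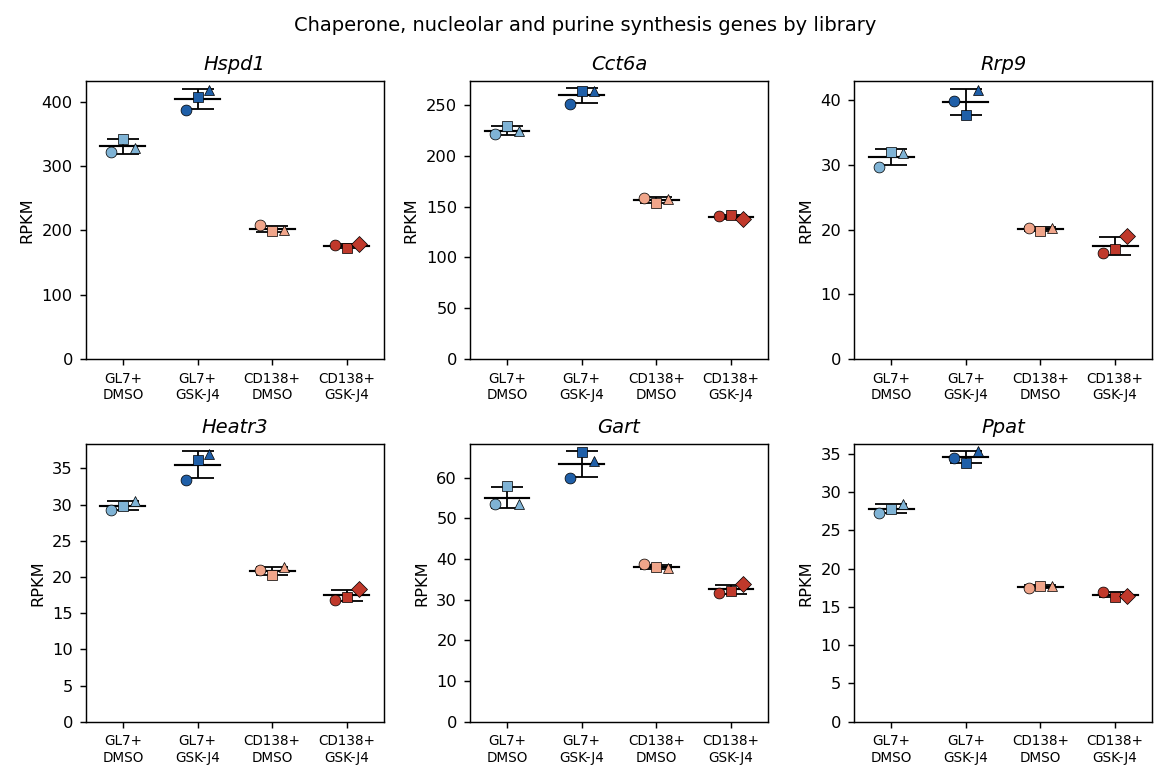
RPKM of 2 chaperone genes (Hspd1, Cct6a), 2 nucleolar genes (Rrp9, Heatr3) and 2 purine synthesis genes (Gart, Ppat) in each of the 12 libraries, by group (x axis). Circles, squares, triangles and diamonds are replicates 1, 2, 3 and 4, and bars are the mean and SD of 3 libraries. In each panel GSK-J4 libraries lie above DMSO in GL7+ cells and below DMSO in CD138+ cells.

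In mitochondrial respiration and the proteasome most differences were below 0, with 4 and 2 genes called. Of 25 oxidative phosphorylation genes 23 were below 0 and 4 were called lower, or 16.0% (background 3.16%). Only Uqcrfs1 at -0.30 ± 0.06 (adjusted p = 0.017) and Cyc1 at -0.33 ± 0.07 (0.017), both of respiratory complex III, kept their call in 11 of the 12 leave-one-out fits, and without GL7+ DMSO replicate 1 they had 0.054 and 0.055. Without that library 0 of the 25 were called, and without GL7+ GSK-J4 replicate 1, 2 or 3, GL7+ DMSO replicate 3, CD138+ DMSO replicate 1, 2 or 3 or CD138+ GSK-J4 replicate 2 there were 2. Of 31 proteasome genes 29 were below 0 and 2 were called lower, or 6.5% beside that background, among them Psma5 at -0.35 ± 0.06 (0.0072). Proteasome counts ran from 1 to 8 over the leave-one-out fits, with 8 without CD138+ GSK-J4 replicate 1, 5 without GL7+ DMSO replicate 2, and 1 without GL7+ DMSO replicate 1 or 3, CD138+ DMSO replicate 1, 2 or 3, CD138+ GSK-J4 replicate 2 or GL7+ GSK-J4 replicate 3. Of 20 actin cytoskeleton genes 4 were called lower, with a list median of -0.06. They were Coro1a, which binds actin filaments in leukocytes (-0.50 ± 0.07, 0.0052), the bundling protein gene Lcp1 (-0.54 ± 0.11, 0.018), cytoplasmic actin Actg1 (-0.45 ± 0.08, 0.011) and Actr2 of the ARP2/3 complex (-0.32 ± 0.05, 0.0055). Coro1a read 252, 262 and 238 RPKM against 139, 142 and 155 in CD138+ and 497, 511 and 515 against 431, 389 and 432 in GL7+ cells. In the class II presentation pathway, where 10 of 11 genes fell in GL7+ and 8 in CD138+ cells, H2-DMb1, a subunit of the peptide exchange factor, had a lower difference (-0.65 ± 0.10, 0.0055). Its change in mean RPKM was -8.37 in CD138+ and -12.2 in GL7+ cells, so its order depended on the scale. The lysosomal protease gene Ctss had a higher difference (0.27 ± 0.06, 0.03), with changes of 0.14 in CD138+ and -0.13 in GL7+ cells. The call of Ctss was lost at equal depth (0.055) and without any of GL7+ DMSO replicate 1, GL7+ GSK-J4 replicate 1 or 2, CD138+ DMSO replicate 1 or 3 or CD138+ GSK-J4 replicate 2 (0.058 to 0.081). The median of the 11 differences was 0.02, and 4 were called without CD138+ GSK-J4 replicate 1.

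Targets of p53, which respond to DNA damage and other stress, had higher differences. Of 23 tested members 6 were called higher and 0 lower (background 1.29% and 3.16%), 20 were above 0, and the median was 0.22. In CD138+ cells 9 rose and 2 fell, and in GL7+ cells 2 rose and 8 fell. Cdkn1a, the inhibitor p21 of cyclin-dependent kinases, read 9.64, 8.604 and 9.01 RPKM against 18.8, 18.1 and 19.6 in CD138+ and 8.89, 10.2 and 8.25 against 12.4, 12.8 and 12.6 in GL7+ cells. It rose in both and further in CD138+ cells (0.54 ± 0.10, adjusted p = 0.0089). Ccng1, a cyclin of the p53 feedback loop, read 102, 93.9 and 96.6 against 127, 125 and 120.1 and 109, 111 and 109 against 102, 102 and 99.9 (0.45 ± 0.05, 0.0018). Zmat3, an RNA-binding target, had a difference of 0.51 ± 0.10 (0.015) and Mdm2, the ligase that degrades p53, one of 0.27 ± 0.05 (0.014). The other two were Btg2, counted above among immediate early genes, and the kinase gene Plk2 (0.93, 0.015), which falls outside the rule for named genes. Trp53 itself, also outside the rule, had a difference of 0.07 (0.67).

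Bcl2l11, which encodes the death-promoting protein BIM, was the 1 called member of 13 tested genes of the BCL2 family. It read 16.6, 15.99 and 16.8 RPKM in CD138+ DMSO, 19.7, 21.3 and 20.1 in CD138+ GSK-J4, 14.02, 12.6 and 13.5 in GL7+ DMSO and 10.6, 10.2 and 9.78 in GL7+ GSK-J4 libraries. It rose in one fraction and fell in the other without overlap (0.65 ± 0.07, adjusted p = 0.0015). The family's 1 call became 3 without CD138+ GSK-J4 replicate 1. Cdkn2a, the locus of the inhibitors p16 and ARF, fell in both fractions, by 0.55 on the log2 scale in CD138+ and by 1.10 in GL7+ cells. Its difference of 0.55 (95% interval 0.22 to 0.88) had an adjusted p of 0.057, and 0.034 with the mouse as a block. Of 30 S phase genes 28 rose in GL7+ and 15 in CD138+ cells. In 29 the difference was below 0, and 4 were called lower (background 3.16%). Rrm2, a subunit of ribonucleotide reductase, was the 1 of these whose call stood when any single library was left out. It read 171, 171 and 167 against 231, 238 and 248 in GL7+ and 214, 203 and 216 against 249, 247 and 252 in CD138+ cells (-0.25 ± 0.05, 0.016). The 4 became 1 or 2 without any library but CD138+ GSK-J4 replicate 4, and 1 with the mouse as a block or at equal depth. Without the variance trend, with all 15 libraries and with 14 of them 0 were called, Rrm2 having 0.055, 0.11 and 0.051. Of 26 genes of G2 and M phase 0 were called in limma, with 4 at an unadjusted p under 0.05 and 1 called by voom, and the median was -0.02.

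The targets of the compound and the opposing enzyme were examined by name. Kdm6a read 23.6, 23.2 and 20.8 RPKM against 23.5, 23.99 and 20.3 in GL7+ and 29.2, 27.6 and 26.3 against 32.2, 30.03 and 27.3 in CD138+ cells, with a difference of 0.10 (95% interval -0.13 to 0.33, adjusted p = 0.67). Kdm6b read 7.85, 5.73 and 9.05 against 6.24, 5.57 and 6.04 and 4.34, 4.26 and 3.75 against 3.74, 3.53 and 3.79 (0.15, -0.20 to 0.51, 0.65). The compound acts on the enzymes, so these transcript levels do not measure its action. Ezh2, the methyltransferase, rose in GL7+ cells, from 114, 109.7 and 109 to 133, 135 and 139 RPKM, and read 94.1, 91.9 and 90.4 against 97.2, 92.2 and 91.6 in CD138+ cells (-0.27 ± 0.05, 0.013). Rbbp4, a histone-binding subunit of the same complex and of others, changed in opposite directions (-0.33 ± 0.05, 0.0074). Of the 28 tested Polycomb and H3K27 demethylase genes 4 had a lower and 1 a higher difference (background 3.16% and 1.29%), and the median was -0.01. The 5 became 3 without CD138+ DMSO replicate 1 or 2, GL7+ DMSO replicate 2, GL7+ GSK-J4 replicate 2 or 3 or CD138+ GSK-J4 replicate 2, and 2 without GL7+ DMSO replicate 1 or CD138+ DMSO replicate 3. The block for mouse also left 3. Of 18 genes of the other JmjC demethylases, KDM2 to KDM5 and relatives, 0 were called in limma, with 3 at an unadjusted p under 0.05 and 0 called by voom.

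Genes past the threshold in both fractions in the same direction were also ranked by the summed size of their changes. That Mt1, Mt2, Ltb, Gstt1 and Clec2i changed in both fractions was therefore set by the choice. The ranking also took Fcer2a, given above, which was named through its lists as well. Mt1 and Mt2, related metallothionein genes whose proteins bind zinc and copper, had the largest summed changes. Some reads may be shared where their sequences are alike. Mt1 read 3.56, 4.92 and 3.604 RPKM against 53.2, 57.3 and 59.8 in GL7+ and 7.699, 7.305 and 8.78 against 131, 120.2 and 142 in CD138+ cells. On the log2 scale its difference was 0.36 (95% interval 0.05 to 0.66, adjusted p = 0.17) beside a change of 3.53 in GL7+ cells. That of Mt2 was 0.35 (-0.18 to 0.89, 0.47). With a pseudocount of 5 both were called higher, at 0.62 (adjusted p = 0.0078) for Mt1 and 0.84 (0.0061) for Mt2. Ltb, the gene of lymphotoxin beta, read 42.8, 39.4 and 35.9 against 18.1, 12.9 and 12.6 and 12.5, 12.8 and 10.03 against 4.43, 3.36 and 2.94, with a difference of -0.09 (-0.53 to 0.34, 0.85). Gstt1, a glutathione transferase, fell in both fractions but further in GL7+ cells, at 12.7, 10.6 and 9.44 against 3.44, 2.63 and 2.84 there and 8.17, 8.37 and 8.34 against 4.94, 4.13 and 3.12 in CD138+ cells (0.69 ± 0.18, 0.049). Its call was kept only without GL7+ GSK-J4 replicate 1, GL7+ DMSO replicate 3 or CD138+ GSK-J4 replicate 4, with 0.073 to 0.11 without any of the other 9 libraries. Clec2i, a lectin gene, had a difference of -0.81 (-1.30 to -0.32, 0.06) at 1 to 198 reads a library. Its value moved from -0.046 (0.84) with a pseudocount of 5 to -1.89 (0.013) with voom. Of 29 genes of glycolysis and the hypoxia response 16 fell and 1 rose in CD138+ cells and 17 fell and 1 rose in GL7+ cells, with medians of -0.34 and -0.33. Of these 0 had a called difference in limma, with 3 at an unadjusted p under 0.05, 0 called by voom and 1 with the mouse as a block.

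Some of the largest differences fell outside these groups. Vkorc1, the vitamin K epoxide reductase of the endoplasmic reticulum, rose in CD138+ cells from 11.2, 10.5 and 10.1 to 18.4, 17.5 and 19.5 RPKM and read 7.43, 8.76 and 8.18 against 7.95, 7.14 and 8.98 in GL7+ cells (0.77 ± 0.11, adjusted p = 0.005). Basp1, a membrane-bound signalling protein, read 3.68, 4.26 and 3.39 against 6.22, 4.82 and 5.63 and 5.101, 6.08 and 5.11 against 3.53, 2.76 and 2.43 (1.18 ± 0.16, 0.004), so that GSK-J4 raised it in CD138+ and lowered it in GL7+ cells. Gpr18, a G protein-coupled receptor of lymphocytes, and Chst12, a chondroitin sulphotransferase, did the same, with differences of 0.72 ± 0.14 (0.013) and 0.64 ± 0.07 (0.0017). Lgals3bp, a secreted glycoprotein and interferon target, rose in both fractions and further in CD138+ cells, where it read 15.9, 16.3 and 18.2 against 46.4, 42.2 and 47.7 (0.68 ± 0.10, 0.0052). It was the 1 called member of 28 interferon response genes. The list's 1 call became 3 without GL7+ GSK-J4 replicate 2 and 2 without GL7+ DMSO replicate 3.

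Il2rb, the beta chain of the receptor for IL-2, one of the cytokines in the medium, read 6.401, 5.55 and 6.82 RPKM against 3.03, 3.42 and 3.71 in CD138+ and 3.73, 3.501 and 4.501 against 5.55, 4.57 and 6.89 in GL7+ cells. It fell in one fraction and rose in the other (-1.16 ± 0.17, adjusted p = 0.0052). Gypc, a membrane skeleton glycoprotein, fell in CD138+ cells, with a GL7+ change of -0.22 (-1.01 ± 0.15, 0.0052). Lars2, the mitochondrial leucyl-tRNA synthetase, read 65.5, 71.5 and 57.1 against 34.2, 36.2 and 26.9 in CD138+ cells and 44.2, 28.4 and 33.4 against 31.3, 46.5 and 47.6 in GL7+ cells, where the treated libraries overlapped the solvent ones. Its difference was -1.22 ± 0.25 (0.017, and 0.054 with the mouse as a block). In cholesterol synthesis, where 15 of 27 genes fell in GL7+ and 9 in CD138+ cells, the kinase gene Pmvk (0.32 ± 0.06, 0.0082) and the demethylase gene Cyp51 (0.22 ± 0.05, 0.017) had higher differences.

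Very short genes rest on few reads. Snord73a, a small nucleolar RNA gene of 68 bases, had 6, 5 and 6 reads in CD138+ DMSO and 0 in each CD138+ GSK-J4 library, with 8, 12 and 14 in GL7+ DMSO and 11, 10 and 13 in GL7+ GSK-J4 libraries. Its difference passed the threshold (adjusted p = 0.00017), but a count of 0 allows up to 3 reads, so no fold is given. The libraries without a read were also the shallowest group, and with all libraries thinned to equal depth the adjusted p was 2.6e-05. Mir1894, a microRNA gene of 81 bases, had 4 to 24 reads a library and a difference of -1.28 ± 0.31 (0.037). Its call was kept without CD138+ DMSO replicate 1, CD138+ GSK-J4 replicate 1, 2 or 4 or GL7+ GSK-J4 replicate 2, and lost without any of the other 7 libraries at 0.068 to 0.088. Of the 5 genes with a higher difference of at least 1, Dkkl1, Mir219a-1 and Mir421 stayed under 5 RPKM in every group and were singled out after their values were seen.

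Markers of other cells that a spleen culture could hold were mostly below 1 RPKM in every library. This was so for 9 of 12 T cell, 9 of 10 NK cell, 9 of 14 myeloid, 7 of 10 dendritic and 7 of 9 erythroid and platelet markers. Cd3e was at 0 in every library, Cd4 and Cd8a reached at most 0.11 and 0.098 RPKM, Ncr1 0.065, Csf1r 0.088 and Siglech 0.057. Xcr1, Alas2 and Pf4 reached 0.54, 0.501 and 0.352. The myeloid marker Itgam was higher, at 2.81, 1.91 and 3.395 RPKM in GL7+ DMSO and 0.566, 0.379 and 0.512 in CD138+ DMSO libraries. Lyz2, also myeloid, ran from 0.143 to 2.876 RPKM over the cultured libraries. The summed T cell list was 5.34 to 6.00 RPKM in GL7+ DMSO, 5.22 to 6.39 in GL7+ GSK-J4, 9.36 to 9.69 in CD138+ DMSO and 5.37 to 7.43 in CD138+ GSK-J4 libraries. Its member Cd28, which is also in the plasma cell list, had means of 0.853, 0.802, 7.56 and 4.76 RPKM in these groups in turn. The NK list, in which Il2rb is the 1 tested gene, was 4.18 to 5.28, 5.25 to 7.86, 6.00 to 7.84 and 3.79 to 4.08 in the same order. The myeloid list was 15.1 to 19.5, 10.3 to 16.6, 8.18 to 10.96 and 7.59 to 8.28. The dendritic list was 76.2 to 78.0, 69.4 to 75.6, 102 to 109 and 110.3 to 123, and the erythroid and platelet list 7.28 to 7.65, 10.8 to 12.2, 1.87 to 2.37 and 0.981 to 2.60. Among the tested genes of these lists, Il2rb and Batf3, a factor of dendritic cells that activated lymphocytes also express, had a called difference. The part of such cells in the differences above was not tested.

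**Figure D5:**
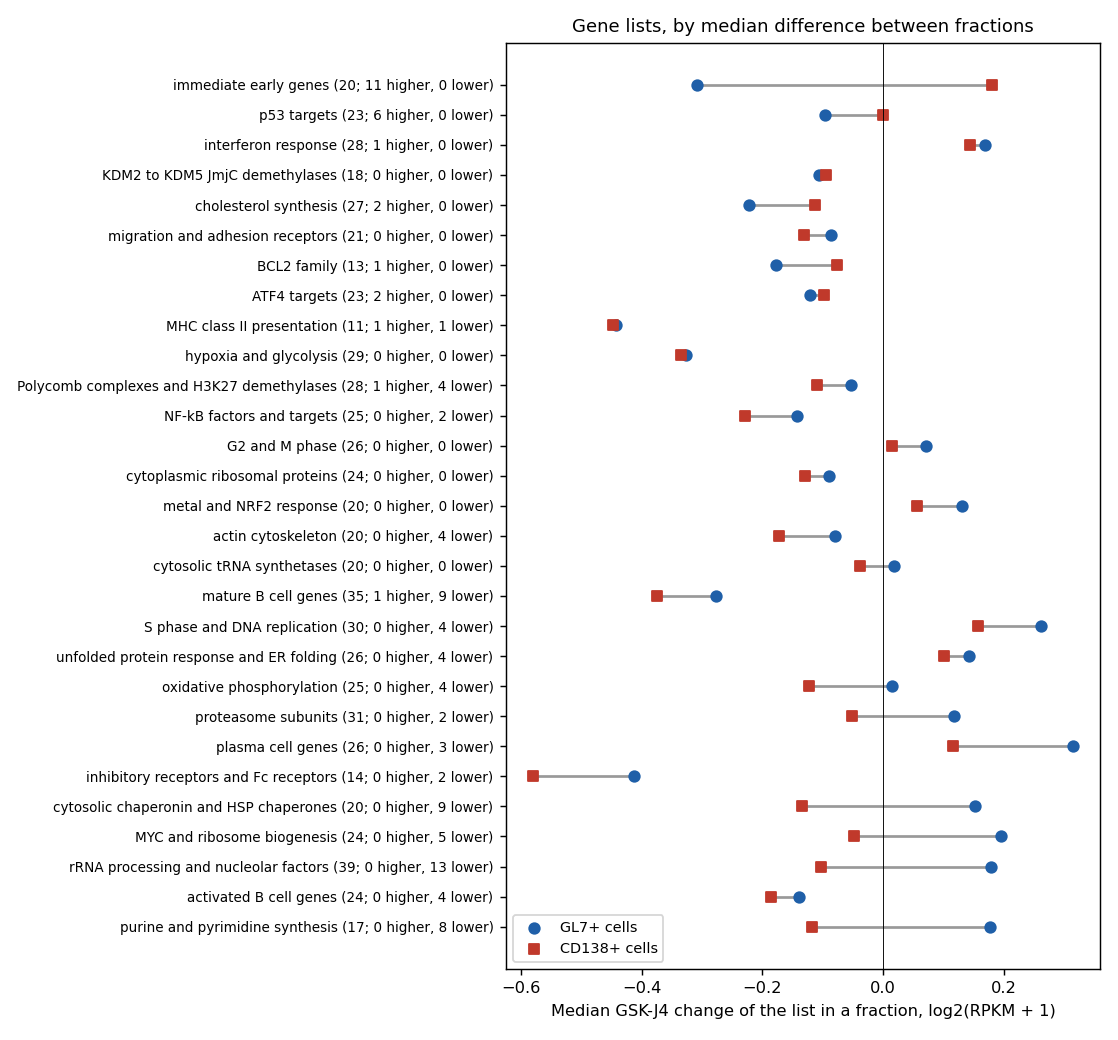
Median GSK-J4 change of each gene list with at least 10 tested members, on the log2(RPKM + 1) scale (x axis), in GL7+ cells (circles) and CD138+ cells (squares). Lists are ordered by their median difference between fractions, highest at the top, and each name gives the number of tested, called higher and called lower genes. The immediate early genes lie on opposite sides of 0, as do the chaperone, nucleolar, purine synthesis, MYC and ribosome biogenesis and proteasome lists. So do the oxidative phosphorylation and tRNA synthetase lists, with GL7+ medians of only 0.01 and 0.02. The glycolysis and class II presentation lists have nearly equal medians.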

How the data were processed

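The authors deposited RPKM per gene in 1 table, per the file headers. TopHat2 and the build mm9 are named in the submitters' processing notes. Of the version, counter, annotation and strand setting the sources used here give nothing, so reads of a gene and of one overlapping it on the other strand may be mixed. Depth (6241143 to 12213369 reads) was recovered from the step between low values, which came out whole (tolerance 0.1 read) in 100% of values worth 20 reads or fewer.

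The fit used limma 3.58.1 (R 4.3.3) and log2(RPKM + 1) of genes that reached 1 RPKM in 3 or more of the 12 libraries, with 1 mean per group, a trended variance, 8 residual degrees of freedom and Benjamini-Hochberg adjustment over 10383 genes at a threshold of 0.05. It was tested on simulated data. The scale understates changes of low genes. Plots were made in python 3.11.15 with matplotlib 3.10.9. The alternatives are those of the closing section.

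Groups came from the labels. The header of 1 CD138+ GSK-J4 column carries the number 4, which no sample has, so the column was tied to its group alone, and a blocked fit gives it no weight. Labels give libraries of different groups the same mouse, which pairs them. After subtraction of group means, libraries of 1 mouse had a median correlation of 0.094 (-0.034 to 0.195, 15 pairs) and libraries of different mice one of -0.032 (30 pairs).

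Genes were named by a rule. It took up to 10 per direction with the largest called difference, at least 5 RPKM in a group and no overlap in the fraction that changed more, and up to 6 with opposite called changes. It added up to 4 called members of each list, 14 regulators, and up to 6 genes with the largest changes shared by both fractions. Of the genes it took, 1 is not reported here. The members, the rule and the lists were chosen with earlier results of these data known, and 6 lists were added after the differences were seen. Of the tested genes 60.6% had a promoter window, under the 80% needed, so a comparison of motif shares is void.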

Additional observations from a re-analysis of the deposited data

Results flagged for a closer look

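Each result here was picked out because the GSK-J4 effect differed between the fractions by the test of that difference itself (limma, adjusted p under 0.05). The count over all genes was 462. Among genes whose change was higher in CD138+ than in GL7+ cells, the difference on the log2(RPKM + 1) scale was 1.26 for Egr1, 1.18 for Basp1, 0.84 for Ier2, 0.82 for Fos, 0.82 for Egr2, 0.81 for Zfp36, 0.77 for Vkorc1, 0.74 for Junb, 0.72 for Gpr18, 0.69 for Gstt1, 0.65 for Bcl2l11 and 0.64 for Chst12. Among genes whose change was lower it was -1.28 for Mir1894, -1.22 for Lars2, -1.18 for Spib, -1.16 for Il2rb, -1.05 for Zbtb32, -1.01 for Gypc, -1.0 for Id3, -1.0 for Cd22, -0.49 for Hspd1 and -0.37 for Cct6a. Snord73a had 0 reads in the CD138+ GSK-J4 libraries, so its fitted value of -3.21 is no measure of size, and it ran from -1.41 with a pseudocount of 5 to -6.39 with one of 0.1. The differences of Egr1, Basp1, Ier2, Fos, Zfp36, Junb, Gpr18, Bcl2l11, Chst12, Il2rb, Hspd1 and Cct6a stand on opposite changes past the threshold in both fractions. The calls of Egr2, Gstt1 and Mir1894 were lost on leaving out 10, 9 and 7 of the 12 libraries, and those of the other 20 genes listed stood without any single library.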

How the results depend on the processing

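The count of 462 called differences was 299 with no filter on low values, 274 without the variance trend, 243 at equal depth and 847 with a weight per library. It was 103 when all 15 libraries shared 1 variance, and 365 when the naive library of lowest depth was left out of that fit, an alternative added after the data were seen. Leaving out 1 library at a time gave 211 to 501. The other 8 alternatives gave 451 to 639 calls. Quantile normalization gave 451 and raised the share of higher calls from 29.0% to 39.0%. With the mouse as a replicate block 455 genes were called, 317 of them shared, and of the 93 named genes 13 lost and 2 gained a call. Of 81 named genes with a call, 58 kept it without any single library, and 44 lost it when all 15 libraries shared 1 variance. Mt2 had a difference of -0.054 with a pseudocount of 0.1, -0.029 with voom and 0.84 with a pseudocount of 5, where it and Mt1 (0.62) were called. Ltb had 0.23 with a pseudocount of 5, and -0.22 to 0.065 over the fits that left out 1 library, above 0 without GL7+ GSK-J4 replicate 1 (0.065) or CD138+ GSK-J4 replicate 4 (0.0083). The cause of these shifts was not tested. The CD138+ GSK-J4 libraries set the lowest depth.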

Other observations

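Further lists held 0 to 2 called differences each, beside 4.45% of all tested genes. The called share was 8.0% of the NF-kB list, 14.3% of inhibitory and Fc receptors and 8.7% of ATF4 targets. It was 16.7% of inhibitors of cyclin-dependent kinases. In such short lists 1 or 2 calls set these shares, which lie above that background. Of 25 NF-kB factors and targets 13 fell in CD138+ and 8 in GL7+ cells, and the 2 called differences were lost without any of GL7+ DMSO replicate 1 or 3, GL7+ GSK-J4 replicate 1 or 3, CD138+ DMSO replicate 2 or CD138+ GSK-J4 replicate 2. Of 14 inhibitory and Fc receptor genes 11 fell in CD138+ and 8 in GL7+ cells, and the called ones were Cd22 and Fcer2a. Of 23 ATF4 targets 2 were called, and 0 were with the mouse as a block. Of 20 genes of the metal and NRF2 response 0 were called in limma, with 6 at an unadjusted p under 0.05 and 0 called by voom. The same fits gave 0, 4 and 0 for 21 migration and adhesion receptors. Of 6 tested inhibitors of cyclin-dependent kinases all 6 had a difference above 0, with a median of 0.31, and Cdkn1a was the 1 called. The blocked fit called 3. Pdcd1, which encodes the inhibitory receptor PD-1 and was singled out after its values were seen, stayed under 5 RPKM and had a difference of -1.16 ± 0.21 (limma adjusted p = 0.01), with group means of 1.33 RPKM in GL7+ DMSO, 3.84 in GL7+ GSK-J4, 2.77 in CD138+ DMSO and 2.47 in CD138+ GSK-J4 cells.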
